A study of Mus musculus with 9 samples.

Results

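Mitochondrial protein import and quality control genes were examined in the epididymal white fat pad of mice, which lies against the epididymis, by RNA sequencing of 5 control libraries and 4 libraries labelled UBKO. The genes were taken by name: every protein-coding row whose symbol begins with Tomm or Timm and a digit, and 22 further named genes of the import motor, processing peptidase, chaperones, proteases, prohibitins, sorting machinery and intermembrane space relay. This gave 46 genes of 28481 in the table. The rule used names and no expression value, but earlier results of these data were known when the genes were chosen. Both groups had received CL316,243, an agonist of the beta3-adrenergic receptor, so genotypes are compared in stimulated fat, with no unstimulated group. The UBKO genotype is a knockout of Ctnnb1, which encodes beta-catenin, driven by Ucp1-cre, that is, by a promoter active in adipocytes that express the uncoupling protein Ucp1. The control genotype is labelled Control. Its alleles, and the age and strain of the animals, were not given. The libraries hold RNA of the whole pad, so cells in which the promoter is silent contribute, and fewer cells of a type and less RNA per cell cannot be told apart. Whether each library is a separate animal is not stated, so the p-values cover only the spread among libraries, part of which may be technical.

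Nearly all mitochondrial proteins are made in the cytosol and imported. The translocase of the outer membrane, TOM, receives them. From there, proteins with a cleavable presequence pass the TIM23 translocase of the inner membrane, pulled by a motor built around the matrix Hsp70 protein, and lose the presequence to the processing peptidase. Metabolite carriers are escorted by small TIM chaperones to the TIM22 translocase, barrel proteins are placed in the outer membrane by the sorting and assembly machinery, SAM, and small cysteine-rich proteins are trapped in the intermembrane space by oxidative folding. Chaperones then fold the imported proteins, and proteases of the matrix and inner membrane degrade those that fail. In brown and beige fat, where mitochondria are dense and heat is made by uncoupled respiration, this machinery supplies the respiratory chain.

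Several libraries stood apart. Markers of epididymis made up 2.43% and 2.17% of all reads in Control replicates 1 and 2, and at most 0.000186% in any other library. Ctnnb1 itself stood at 307 CPM in the library labelled UBKO replicate 3, within the control range of 276 to 360.4 CPM, while the other UBKO libraries had 179.8 to 209.7 CPM. CPM are gene counts relative to library size, scaled between libraries with TMM, a method that sets the bulk of genes to no change. Adipoq and Plin1, which define adipocytes, were abundant in every library. The 12 adipocyte markers together took 2.47 to 4.96% of the counts in control and 4.22 to 5.57% in UBKO libraries. The 12 macrophage markers took 0.118 to 0.299% in control and 0.0258 to 0.0371% in UBKO libraries, with all 12 lower in UBKO by edgeR, and epithelial markers took 0.0237% in UBKO replicate 2 against at most 0.00154% in the other UBKO libraries. The 7 brown fat markers took 0.0104 to 0.0235% in control and 0.0265 to 0.0441% in UBKO libraries, which do not overlap, with 4 higher by edgeR. Ucp1 itself, low throughout, ran from 1.098 to 2.215 CPM in control and from 2.653 to 8.269 CPM in UBKO libraries. The 7 progenitor markers took 0.184 to 0.319% in control and 0.0857 to 0.148% in UBKO libraries, again apart, with 3 lower. The 5 endothelial markers overlapped, at 0.0698 to 0.101% and 0.0775 to 0.103%, with 2 higher. The part of these shifts in cell markers in the values below was not tested.

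Trap1, Timm21 and Timm29 were higher in UBKO libraries, and no import or quality control gene was lower. The 3 genes are 6.67% of the 45 tested, read against 3.88% of all 16123 tested genes that were higher and 7.56% that were lower, as called by edgeR (quasi-likelihood, Benjamini-Hochberg adjusted p under 0.05 over all genes). The untested gene, Tomm20l, a relative of the receptor gene Tomm20, had 1 count in all controls together and 1 in all UBKO libraries. The other 45 genes had at least 100 counts in every library. Most genes lay a little above 0: the median log2 difference, UBKO minus control, was 0.21, against -0.01 for all tested genes, with 37 genes above 0 and 8 below, while total count scaling, with no TMM factor, gave 9 above 0 and 36 below. With TMM scaling sizes were small, with 20 genes within 0.2 of 0 and 24 whose approximate 95% interval lay within 0.5 of 0 on the log2 scale. The interval used the normal distribution, which is too narrow for so few libraries, so 24 may be too many. The shares of all tested genes within these limits are not given here. At an unadjusted edgeR p of 0.05, with TMM scaling, there were 13 genes, 0 of them lower. The share of all tested genes at that threshold is not given here, so this count is not read as a result about these genes. DESeq2's Wald test called 9 genes (6.81% of all genes it tested were higher) and limma voom with array weights 8 (6.64%), and all 3 tools called Trap1, Timm21 and Timm29. With TMM scaling all UBKO libraries lay above all controls for 6 genes, Trap1, Timm21, Timm29, Timm8b, Tomm20 and Yme1l1. That is 13.3% against 6.41% of all tested genes. For 0 genes did all UBKO libraries lie below all controls, against 9.11%. With total count scaling the log2 differences of Timm8b, Tomm20 and Yme1l1 turned to -0.10, -0.14 and -0.17.

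**Figure D1:**
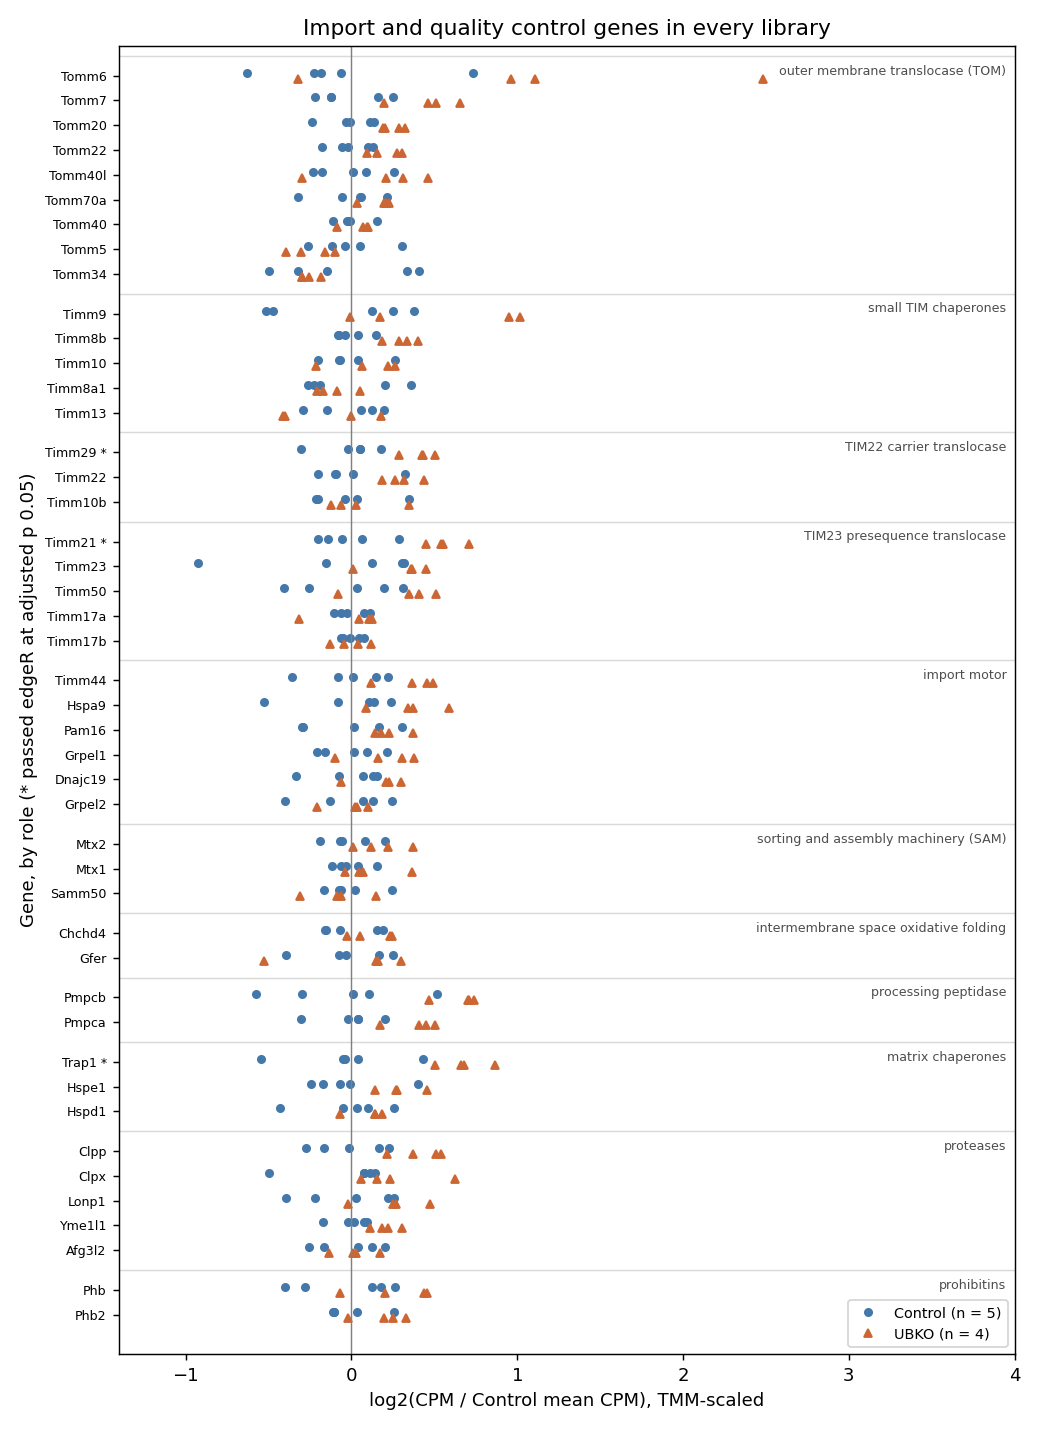
Level of 45 import and quality control genes in each of 9 libraries, as log2 of CPM over the control mean, with TMM scaling; circles are the 5 control and triangles the 4 UBKO libraries, grouped by role, and an asterisk marks the 3 genes that passed edgeR. The triangles of Trap1, Timm21, Timm29, Timm8b, Tomm20 and Yme1l1 all lie to the right of the circles, and UBKO replicate 3 stands far out for Tomm6.

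The genes differed widely in level. Levels between genes are given as CPM per total counts and per kilobase of the gene's merged exons, since the deposited FPKM divide by a length in which overlapping exons of different transcripts are counted repeatedly, 1.25 times the merged length at the median over these genes and 2.69 times for Timm21. On this scale the highest control means were those of Hspa9, the matrix Hsp70 of the import motor (155 ± 19.4, SD, n = 5), and Hspd1, the chaperonin Hsp60 (148 ± 20.45, SD, n = 5). These 2 means lie within each other's spread. Timm8b, a small TIM chaperone, came next at 80.6 ± 12.4 (SD, n = 5), then Hspe1, the co-chaperonin of Hspd1, and Trap1, a matrix relative of Hsp90, at 61.5 ± 12.85 and 58.2 ± 10.05 (SD, n = 5 each), which also overlap in spread. The median gene stood at 18.8. At the low end were Grpel2 (2.325 ± 0.479), a nucleotide exchange factor of the matrix Hsp70, and Timm21 (3.46 ± 0.448), Timm9 (3.56 ± 1.07), Chchd4 (4.14 ± 0.557) and Pam16 (4.17 ± 0.548, SD, n = 5 each), of which the last 4 do not differ beyond their spread. Spread among replicates was small for most genes, with a median SD of log2 CPM of 0.202 over controls and 0.1495 over UBKO libraries. Timm17b was the steadiest over the controls (SD 0.0582) and Timm23 the most variable (0.518), and over UBKO libraries the range ran from Tomm34 (0.0542) to Tomm6 (1.15).

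Promoter letters were examined because many genes of mitochondrial biogenesis are known targets of the transcription factors GABP, also called NRF2, and NRF1. RefSeq windows on GRCm38.p6, from 250 bases before to 50 after the start, matched 40 of the 46 genes. A gene was counted for a motif where any of its windows held it. The GABP core CCGGAAG, searched on both strands (other strand CTTCCGG), was found for 18 of 40 genes (45%), against 9.93% of all 27025 genes with a window and 19% of 10828 tested protein-coding genes. The NRF1 motif, GCGCA and GCGC with any base N between them on either strand, was found for 6 of 40 (15%), against 5.19% and 10.9%. A match describes letters and not binding. The median log2 difference was 0.21 for the 18 genes with the GABP core and 0.23 for the 21 tested genes without it. Sites of genes described below are shown, with the first match in capitals and each read 5′ to 3′ on the strand of its gene. They are at chr9:21592499-21592527 (plus strand) for Timm29, chr9:50603878-50603906 (plus) for Timm8b, chr2:26389284-26389312 (plus) for Pmpca, chr5:21737133-21737161 (plus) for Pmpcb, chr1:55088060-55088088 (minus) for Hspd1 and chr1:55088057-55088085 (plus) for Hspe1. The last 2 overlap on opposite strands, within the locus that the table gives for Hspd1 and upstream of the one it gives for Hspe1. They are a single genomic site that holds the core on both strands, past the capitals as well, and it counts for both genes.
Timm29: agctctgaccaCTTCCGGgctccactcac
Timm8b: tgaagcgtgaaCCGGAAGgcaggagacgg
Pmpca: ggctcggcgggCCGGAAGccagcgccgaa
Pmpcb: ggagtcatgacCCGGAAGtacatctccac
Hspd1: acgcgcggggcCTTCCGGaaggttctaga
Hspe1: cgttctagaacCTTCCGGaaggccccgcg
The NRF1 motif is shown for Tomm20, a gene whose UBKO values all lay above the controls with TMM scaling, at chr8:126945922-126945951 (minus strand). The estrogen-related receptor motif TCAAGGTCA (other strand TGACCTTGA) is shown for Timm8b, at chr9:50603795-50603823 (plus). Timm8b was the single gene of 40 with this motif (2.5%, against 0.466% of all genes with a window).
Tomm20: gggtccatctGCGCGTGCGCaccaggcgtt
Timm8b: tttcgagggcTCAAGGTCActctacaacc
TTGCATCA (other strand TGATGCAA), the composite motif of the stress factors ATF4 and C/EBP, was found for 0 of 40 genes and for 1.03% of all genes with a window. The window of Trap1 held none of the motifs searched.

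Of 9 TOM genes tested 0 were called, with a median log2 difference of 0.20. In the order of replicate number, here and below, Tomm20, the presequence receptor, had 77.9, 79.1, 67.6, 86.0 and 87.6 CPM in the controls and 90.9, 91.6, 99.7 and 97.0 CPM in the UBKO libraries. With TMM scaling the groups did not overlap, but the difference of 0.25 (SE 0.10, edgeR adjusted p = 0.124) did not pass. Total count scaling turned it to -0.14. Tomm7, a small subunit that modulates assembly of the complex, had 24.65, 20.2, 26.2, 18.9 and 20.3 CPM in the controls and 30.4, 25.3, 34.6 and 31.35 CPM in the UBKO libraries, where UBKO replicate 2 fell inside the control range, and its difference of 0.46 (SE 0.13, edgeR adjusted p = 0.0512) missed the threshold narrowly. DESeq2 and limma voom with array weights called it (adjusted p = 0.0181 and 0.0163), and over all alternatives its adjusted p ran from 0.0163 to 0.767. The channel protein Tomm40 (0.05 (SE 0.09, edgeR adjusted p = 0.767)) and the receptor Tomm70a (0.17 (SE 0.11, edgeR adjusted p = 0.377)) had log2 differences near 0, as did Tomm40l, a homologue of Tomm40 (0.20 (SE 0.16, edgeR adjusted p = 0.461)), and the difference of Tomm22, the central receptor, was 0.21 (SE 0.09, edgeR adjusted p = 0.178). Tomm5, a small subunit, and Tomm34, a cytosolic co-chaperone of import, were the lowest of all 45 genes, with log2 differences of -0.23 (SE 0.13, edgeR adjusted p = 0.259) and -0.26 (SE 0.19, edgeR adjusted p = 0.403), and neither passed with TMM scaling. Genes that overlap Tomm34 hold 97.2% as many counts, and those that overlap Tomm70a 21.2%.

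Tomm6, another small TOM subunit (ENSMUSG00000033475, mm10 chromosome 17, 47686646 to 47688386), had the largest log2 difference of the 45, 1.39 (SE 0.48, edgeR adjusted p = 0.0903), and did not pass. It had 14.8, 10.9, 16.1, 14.4 and 28.0 CPM in the controls and 32.9, 13.5, 94.0 and 36.2 CPM in the UBKO libraries. UBKO replicate 3 was far above every other library, and UBKO replicate 2 lay within the control range. Without the library labelled UBKO replicate 3 the difference was 0.71 (edgeR adjusted p = 0.293), without UBKO replicate 2 it was 1.69 (edgeR adjusted p = 0.0299), and over all alternatives the adjusted p ran from 0.0189, with DESeq2, to 0.433. Tomm6 overlaps Gm21981, a row with 268% as many counts over all libraries, and reads could be given to either. Tomm6 took 13.4 to 22.2% of the counts of both rows in the controls. In UBKO replicates 1 to 4 it took 30.6, 15.5, 75.6 and 24.6%. UBKO replicate 3, in which Tomm6 was highest, had the lowest level of Gm21981, 30.4 CPM against 51.8 to 110.9 CPM in the other 8 libraries. Summed over both rows, an alternative chosen after seeing the data, the level was 90.1 ± 26.4 CPM over the 5 controls and 116 ± 25.6 CPM over the 4 UBKO libraries (mean ± SD), a log2 difference of 0.37 (SE 0.22, edgeR adjusted p = 0.2997). In the authors' deposited table Tomm6 is the single gene of the 46 with a q under 0.05 (authors' mean FPKM 8.18 in control and 16.4 in UBKO, q = 0.0262).

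**Figure D2:**
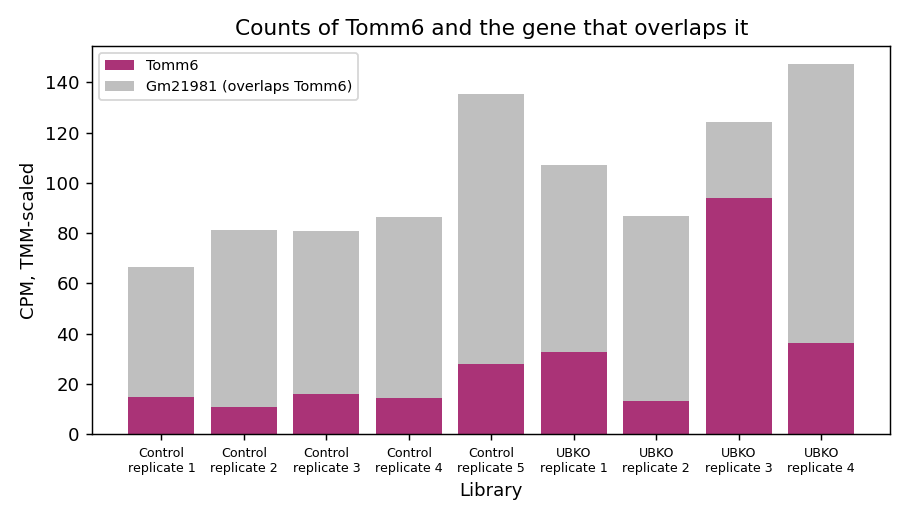
CPM with TMM scaling of Tomm6 (lower bar) and of Gm21981, the row that overlaps it (upper bar), stacked for each of 9 libraries. In UBKO replicate 3 Tomm6 makes up 75.6% of the stack, against 13.4 to 30.6% in the others, while the height of the stack, 124 CPM, lies within the range of the controls, 66.6 to 135.5 CPM.

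In the intermembrane space 0 of 5 small TIM chaperones and 0 of 2 genes of oxidative folding were called, and in the outer membrane 0 of 3 SAM genes. Their median log2 differences were 0.10, 0.09 and 0.12. Timm8b had 38.55, 41.6, 35.4, 35.6 and 36.6 CPM in the controls and 45.7, 42.65, 49.55 and 47.3 CPM in the UBKO libraries. With TMM scaling the groups did not overlap, and the difference of 0.30 (SE 0.09, edgeR adjusted p = 0.05115) missed the threshold narrowly. DESeq2 and limma voom with array weights called it (adjusted p = 0.0165 and 0.0243, with a range over all alternatives of 0.0165 to 0.758). Total count scaling turned the difference to -0.10. Its levels are uncertain, since genes that overlap it hold 39.4% as many counts. Timm9, a subunit of the main carrier chaperone, had 14.9, 9.88, 16.3, 9.57 and 17.8 CPM in the controls and 27.7, 13.6, 15.4 and 26.5 CPM in the UBKO libraries, with UBKO replicates 1 and 4 above the rest and the other UBKO libraries among the controls, and a difference of 0.60 (SE 0.27, edgeR adjusted p = 0.178). Its partner Timm10 differed by 0.10 (SE 0.14, edgeR adjusted p = 0.697). Timm13, which with Timm8a1 or Timm8b forms another chaperone, had 56.5, 51.1, 68.2, 71.7 and 65.15 CPM in the controls and 70.6, 47.4, 62.4 and 46.9 CPM in the UBKO libraries, overlapping groups with a log2 difference of -0.14 (SE 0.15, edgeR adjusted p = 0.608). Timm8a1 differed by -0.10 (SE 0.16, edgeR adjusted p = 0.7285).

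The SAM channel gene Samm50 had 124, 123, 116, 153.5 and 132 CPM in the controls and 144, 105, 122 and 124 CPM in the UBKO libraries, and its partner genes Mtx1 and Mtx2, the metaxins, ranged from 23.9 to 33.3 CPM and from 43.2 to 63.7 CPM over all libraries. Their log2 differences were -0.07 (SE 0.12, edgeR adjusted p = 0.754), 0.12 (SE 0.11, edgeR adjusted p = 0.509) and 0.18 (SE 0.11, edgeR adjusted p = 0.302), and the groups overlapped for all 3 genes. Chchd4, the mouse Mia40, which oxidises incoming proteins, and Gfer, the sulfhydryl oxidase that recharges it, differed by 0.13 (SE 0.12, edgeR adjusted p = 0.512) and 0.05 (SE 0.18, edgeR adjusted p = 0.886). Genes that overlap Mtx1 hold 39.4% as many counts.

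In the presequence pathway Timm21 rose and the other 4 TIM23 genes tested, the 6 motor genes and both processing peptidase genes did not pass. Timm21 (ENSMUSG00000024645, mm10 chromosome 18, 84946191 to 84951524), which links TIM23 to TOM and to the respiratory chain, had 11.2, 10.1, 14.2, 10.6 and 12.2 CPM in the controls and 17.1, 19.1, 15.9 and 17.0 CPM in the UBKO libraries. All UBKO libraries lay above all controls, on means of 11.7 ± 1.63 CPM over the 5 controls and 17.3 ± 1.32 CPM over the 4 UBKO libraries (mean ± SD), with a log2 difference of 0.57 (SE 0.13, edgeR adjusted p = 0.0216). It was called in 6 of 9 fits that each left out 1 library, and lost without UBKO replicate 1, the library labelled UBKO replicate 3 or UBKO replicate 4 (edgeR adjusted p = 0.0572, 0.0501 and 0.0618). Without Control replicates 1 and 2 the difference was 0.48 (edgeR adjusted p = 0.0922), with scaling by total counts it was 0.19 (edgeR adjusted p = 0.347), and the adjusted p ran from 0.00178 to 0.441 over all alternatives. Timm21 was the second lowest of the 45 genes per length in the controls.

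Of the TIM23 genes, Timm17a and Timm17b, alternative subunits of the channel, moved little. Their log2 differences were -0.00052 (SE 0.11, edgeR adjusted p = 0.998) and -0.0013 (SE 0.09, edgeR adjusted p = 0.995). Timm23, the namesake subunit, had 28.5, 16.7, 34.6, 39.55 and 39.2 CPM in the controls and 40.8, 31.9, 43.3 and 40.7 CPM in the UBKO libraries, with Control replicate 2 far below the other libraries, and a log2 difference of 0.31 (SE 0.23, edgeR adjusted p = 0.42). Timm50, the presequence receptor of the complex, had 80.6, 89.4, 123, 132 and 109 CPM in the controls and 142, 101, 152 and 136 CPM in the UBKO libraries. Control replicates 1 and 2 were its 2 lowest libraries, and the groups overlapped (0.31 (SE 0.17, edgeR adjusted p = 0.273)).

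The motor genes had a median log2 difference of 0.21. Hspa9 had 425.5, 581, 661, 725 and 674 CPM in the controls and 924, 651, 776 and 792 CPM in the UBKO libraries, with UBKO replicate 2 inside the control range, and a log2 difference of 0.36 (SE 0.17, edgeR adjusted p = 0.204). Timm44, which tethers Hspa9 to the channel, had 41.2, 49.9, 58.5, 53.2 and 61.5 CPM in the controls and 68.0, 57.3, 74.4 and 72.5 CPM in the UBKO libraries, again with UBKO replicate 2 inside the control range, and a log2 difference of 0.37 (SE 0.13, edgeR adjusted p = 0.103). The exchange factors Grpel1 and Grpel2 differed by 0.20 (SE 0.13, edgeR adjusted p = 0.351) and -0.01 (SE 0.15, edgeR adjusted p = 0.977), and Dnajc19, the J protein of the motor, and Pam16, the J-like protein paired with it, by 0.17 (SE 0.13, edgeR adjusted p = 0.411) and 0.23 (SE 0.16, edgeR adjusted p = 0.368). Pam16, Grpel1 and Dnajc19 lie among overlapping genes with 41.2, 33.3 and 361% as many counts, and Dnajc19-ps, a copy with 38.0% as many counts as Dnajc19, was itself called higher (log2 difference 0.59, SE 0.15, edgeR adjusted p = 0.0336), so reads of Dnajc19 could be split.

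The processing peptidase removes presequences with a catalytic subunit, Pmpcb, and a substrate-binding one, Pmpca. Pmpcb had 62.35, 93.3, 133, 75.5 and 99.9 CPM in the controls and 155, 128, 151 and 151 CPM in the UBKO libraries, and Pmpca had 87.3, 106, 124, 111 and 111 CPM in the controls and 147, 122, 153 and 143 CPM in the UBKO libraries. For each, 3 of the UBKO libraries lay above every control and UBKO replicate 2 lay inside the control range. The log2 differences, 0.66 (SE 0.20, edgeR adjusted p = 0.0576) and 0.39 (SE 0.12, edgeR adjusted p = 0.0636), gave the highest median of any role, 0.52, and neither passed. DESeq2 and limma voom with array weights called both (adjusted p = 0.0128 and 0.017 for Pmpcb, 0.0186 and 0.0265 for Pmpca). Without Control replicates 1 and 2 the differences were 0.50 and 0.28 (edgeR adjusted p = 0.145 and 0.1735), and over all alternatives the adjusted p ran from 0.0104 to 0.551 for Pmpcb and from 0.0186 to 0.937 for Pmpca.

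In the carrier pathway Timm29 rose, and Timm22, the channel, and Timm10b, its docking chaperone, did not pass. Timm29 (ENSMUSG00000048429, mm10 chromosome 9, 21592722 to 21595970), a subunit of TIM22 known from human cells, had 44.0, 56.05, 53.4, 61.3 and 56.2 CPM in the controls and 72.9, 66.1, 73.2 and 76.8 CPM in the UBKO libraries. The groups did not overlap, on means of 54.2 ± 6.38 CPM over the 5 controls and 72.2 ± 4.48 CPM over the 4 UBKO libraries (mean ± SD), and the log2 difference was 0.42 (SE 0.11, edgeR adjusted p = 0.0355). It was called in 4 of 9 fits without 1 library and lost without Control replicate 2 or 5 or UBKO replicate 1 or 4 or the library labelled UBKO replicate 3 (edgeR adjusted p = 0.0514, 0.0532, 0.0874, 0.1076 and 0.0977). Without Control replicates 1 and 2 it was 0.33 (edgeR adjusted p = 0.0953), with scaling by total counts 0.04 (edgeR adjusted p = 0.791), and over all alternatives the adjusted p ran from 0.00636 to 0.791. Yipf2, a Golgi membrane protein gene that overlaps Timm29 with 34.7% as many counts, went the other way (log2 difference -1.01, SE 0.20, edgeR adjusted p = 0.0133), so a transfer of reads between the rows cannot be told apart from a change in either. Timm22 had 31.4, 29.1, 27.2, 29.2 and 39.0 CPM in the controls and 37.4, 35.5, 38.8 and 42.3 CPM in the UBKO libraries, overlapping through Control replicate 5, with a log2 difference of 0.30 (SE 0.12, edgeR adjusted p = 0.127). Timm10b, which overlaps genes with 111% as many counts, differed by 0.06 (SE 0.15, edgeR adjusted p = 0.839).

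Among the matrix chaperones Trap1 rose, while the chaperonin genes did not pass. Trap1 (ENSMUSG00000005981, mm10 chromosome 16, 4039971 to 4077827) had 93.9, 134, 185, 132 and 141 CPM in the controls and 249.8, 194.5, 220 and 217 CPM in the UBKO libraries, so that the lowest UBKO library stood just above the highest control and Control replicate 1 was the lowest of all. The means were 137 ± 32.4 CPM over the 5 controls and 220.3 ± 22.7 CPM over the 4 UBKO libraries (mean ± SD), and the log2 difference was 0.68 (SE 0.17, edgeR adjusted p = 0.03425). It was called in 3 of 9 fits without 1 library. The call was lost without Control replicate 2, 4 or 5 (edgeR adjusted p = 0.0602, 0.0596 and 0.0589), and without UBKO replicate 1, the library labelled UBKO replicate 3 or UBKO replicate 4 (edgeR adjusted p = 0.0993, 0.0914 and 0.0904). Without Control replicates 1 and 2 the difference was 0.52 (edgeR adjusted p = 0.0689), and leaving UBKO replicate 2 out too gave 0.60 (edgeR adjusted p = 0.0487). With scaling by total counts it was 0.32 (edgeR adjusted p = 0.0963), the adjusted p over all alternatives running from 0.00268 to 0.596.

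Hspd1 had 264, 344, 380.4, 364 and 425 CPM in the controls and 404, 339, 392 and 392 CPM in the UBKO libraries, and Hspe1, which caps the chaperonin, had 69.2, 81.4, 72.8, 77.9 and 108 CPM in the controls and 98.6, 90.5, 112 and 98.9 CPM in the UBKO libraries. The groups overlapped for both, with log2 differences of 0.10 (SE 0.14, edgeR adjusted p = 0.683) and 0.29 (SE 0.14, edgeR adjusted p = 0.203). Their loci overlap where the divergent genes start, and the pseudogenes Hspd1-ps3 and Hspd1-ps4 hold 18.8% as many counts as Hspd1, so small differences between these genes are uncertain.

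Of 5 protease genes and 2 prohibitin genes 0 were called, with median log2 differences of 0.25 and 0.23. Clpp, the peptidase of the matrix ClpXP protease, had 42.9, 39.7, 47.5, 56.2 and 53.9 CPM in the controls and 69.8, 55.7, 68.5 and 62.0 CPM in the UBKO libraries. UBKO replicate 2 lay between the 2 highest controls, and the difference was 0.41 (SE 0.13, edgeR adjusted p = 0.061), while DESeq2 and limma voom with array weights called it (adjusted p = 0.0289 and 0.042, with a range over all alternatives of 0.0289 to 0.821). Its unfoldase partner Clpx had 58.8, 87.6, 91.7, 87.85 and 89.95 CPM in the controls and 128, 97.6, 86.5 and 92.5 CPM in the UBKO libraries, with Control replicate 1 far below and UBKO replicate 1 far above the other libraries (0.28 (SE 0.16, edgeR adjusted p = 0.284)). Yme1l1, the inner membrane protease facing the intermembrane space, had 78.7, 89.8, 93.5, 94.7 and 87.4 CPM in the controls and 103.5, 101, 95.8 and 109.9 CPM in the UBKO libraries. With TMM scaling the groups did not overlap, and the difference of 0.21 (SE 0.09, edgeR adjusted p = 0.162) did not pass. Total count scaling turned it to -0.17. Lonp1, the main soluble matrix protease, and Afg3l2, the inner membrane protease facing the matrix, differed by 0.25 (SE 0.16, edgeR adjusted p = 0.33) and 0.02 (SE 0.12, edgeR adjusted p = 0.926). Phb and Phb2, the ring-forming scaffolds of the inner membrane, ranged from 54.9 to 99.6 CPM and from 147.7 to 200.7 CPM over all libraries, with log2 differences of 0.27 (SE 0.17, edgeR adjusted p = 0.319) and 0.19 (SE 0.12, edgeR adjusted p = 0.307).

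**Figure D3:**
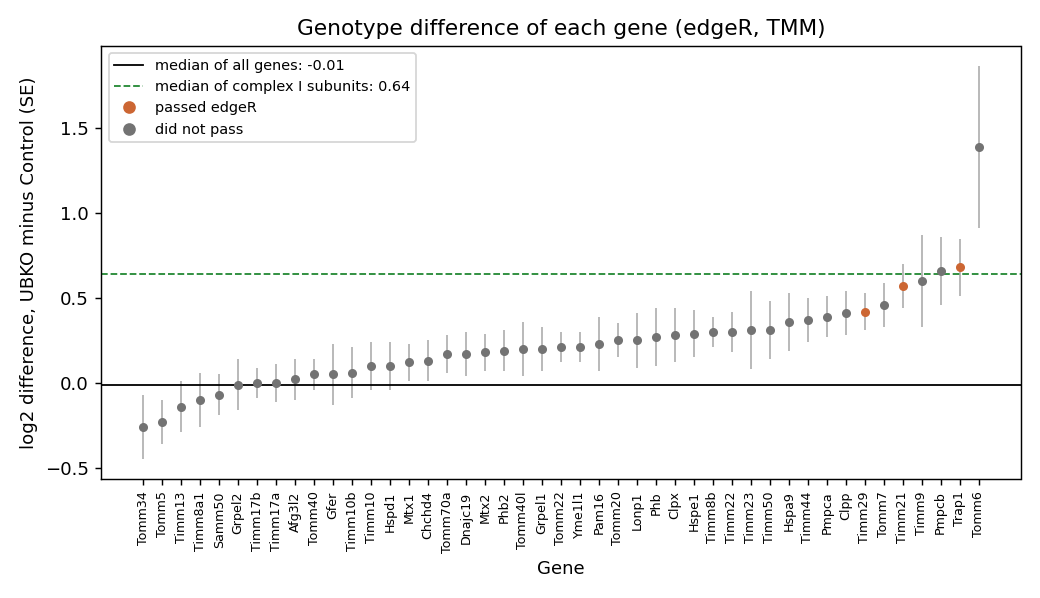
Log2 difference in level, UBKO minus control, of each of 45 genes with its SE, from edgeR with TMM scaling, ordered by size; the solid line is the median of all tested genes (-0.01) and the dashed line that of complex I subunit genes (0.64). Trap1, Timm21 and Timm29 passed, Tomm6 has the largest difference and SE, and 37 of 45 genes lie above 0, against 9 of 45 with scaling by total counts.

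Ratios within a library do not depend on how libraries are scaled, so 12 pairs of partners or paralogues were compared by the log2 ratio of their levels. None of the 12 passed an exact two-sided permutation test with Benjamini-Hochberg adjustment, where the smallest p that 5 against 4 libraries allow is 0.00794. Adjusted over 12 pairs, a single pair at that p would not pass 0.05 by itself. The lack of passing pairs therefore does not show that the ratios were unchanged. The smallest p was that of Timm8a1 over Timm8b, the alternative partners of Timm13, whose log2 ratio was lower by 0.38 in UBKO libraries (exact p = 0.0635, adjusted p = 0.381). Next was Pmpca over Pmpcb, lower by 0.31 (exact p = 0.0794, adjusted p = 0.381), where the UBKO ratios lay close together (SD 0.05, n = 4) and those of the controls spread more (SD 0.26, n = 5). For Timm17a over Timm17b the difference was -0.01 (exact p = 0.984, adjusted p = 0.984).

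The import genes were set beside 2 other groups of nuclear mitochondrial genes. Complex I subunits, matched by gene name, had a median log2 difference of 0.64, with 22 of 36 higher (61.1%) and 0 lower. Of all genes 3.88% were higher and 7.56% lower. The complex I counts depended on the scaling. These became 11 higher and 1 lower with total count scaling, and 0 higher and 3 lower with adipocyte marker scaling. Mitochondrial ribosomal proteins had a median of 0.19, with 7 of 78 higher (8.97%) and 0 lower, which became 0 higher with 8 and 32 lower under the same scalings. Of all genes 1.46% were higher and 27.8% lower with total count scaling, and 0.329% and 44.4% with adipocyte marker scaling. The TMM counts were known when the import genes were chosen. Within each library, the median log2 level per length of the import genes minus that of complex I was -1.47, -1.66, -2.02, -1.64 and -1.60 in Control replicates 1 to 5 and -2.12, -2.19, -2.19 and -2.20 in UBKO replicates 1 to 4. Each UBKO library was therefore below each control, with means of -1.68 ± 0.21 (SD, n = 5) and -2.18 ± 0.04 (SD, n = 4). Against the ribosomal proteins the same quantity was 0.13 ± 0.05 in control and 0.16 ± 0.04 in UBKO libraries (SD, n = 5 and 4), which differ by less than the spread. No test was made of these medians.

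The sign of the set rests on the scaling. With TMM the summed level of the 45 genes was 3441 ± 386.6 CPM over the 5 controls and 4123 ± 399.3 CPM over the 4 UBKO libraries (mean ± SD), but without TMM, by total counts alone, it was 3781 ± 235.5 and 3548 ± 258.7 CPM, and the groups overlap on both. Total count scaling took the all-gene median to -0.39 and that of the import genes to -0.18, with 0 higher and 8 lower (Afg3l2, Samm50, Timm13, Timm17a, Timm17b, Timm8a1, Tomm40 and Tomm5), 17.8% against 27.8% of all genes, where 1.46% were higher. Scaling to the summed counts of adipocyte markers moved them to -0.89 and -0.68, with 18 of the 45 lower (40%, against 44.4% of all genes, with 0.329% higher) and 36 of 45 signs turned. This scaling evens out the sum and not each marker: the 12 markers themselves then had a median of -0.30, with 3 higher and 5 lower. The median of the import genes relative to that of all genes was 0.22, 0.21 and 0.21 under the 3 scalings, and that of complex I was 0.65, 0.66 and 0.72. Without Control replicates 1 and 2 it was 0.08 for the import genes, with 0 called against 1.5% of all genes, and 0.48 for complex I, with 10 of 36 higher. Leaving out UBKO replicate 2 as well gave 0.17 and 2 import genes called, Timm8b and Trap1 (4.44%, against 2.63% of all genes). UBKO replicate 2 was the lowest UBKO library for 35 of 45 import genes, and Control replicate 1 was the lowest control for 19 of 45. Without the library labelled UBKO replicate 3 the median was 0.20, against -0.0039 for all genes, and 0 were called against 0.915% of all genes.

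**Figure D4:**
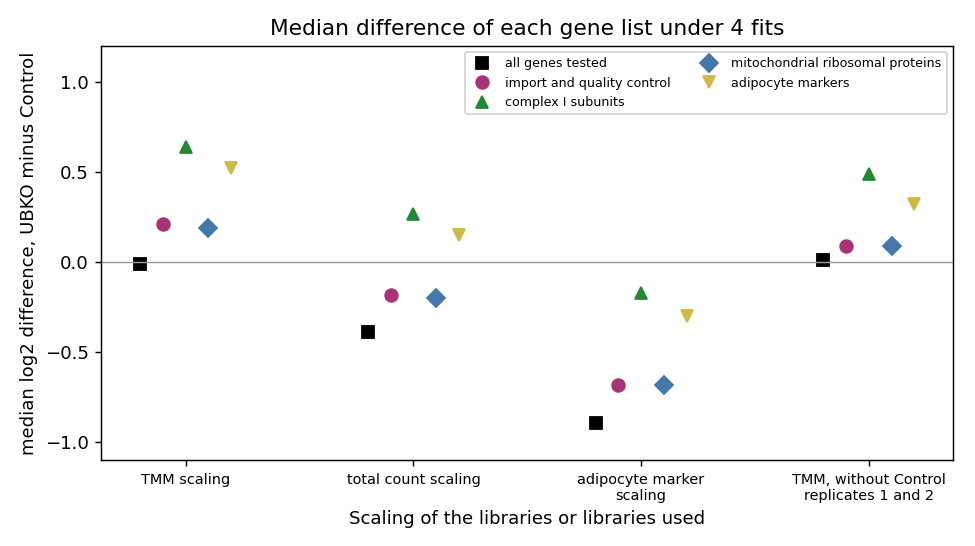
Median log2 difference, UBKO minus control, of 5 gene lists under TMM, total count and adipocyte marker scaling and under TMM without Control replicates 1 and 2. The import and quality control genes lie at 0.21, -0.18, -0.68 and 0.09, close to the mitochondrial ribosomal proteins in each fit and below the complex I subunits, while all genes move from -0.01 to -0.39, -0.89 and 0.01.

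Other genes of import and quality control were listed by function, and most did not pass. Of 10 other import genes 2 were higher and 0 lower, with a median of 0.37, where 3.88% of all genes were higher and 7.56% lower. With total count scaling 1 was higher and 2 lower, with a median of -0.02, where 1.46% of all genes were higher and 27.8% lower. Immp2l, a subunit of the inner membrane peptidase, had 7.63 ± 2.38 CPM over the 5 controls and 14.75 ± 1.42 CPM over the 4 UBKO libraries (mean ± SD), a log2 difference of 0.95 (SE 0.24, edgeR adjusted p = 0.0335). It passed with total count scaling (0.61, edgeR adjusted p = 0.0469) and without Control replicates 1 and 2 (0.67, edgeR adjusted p = 0.0276). With adipocyte marker scaling Immp2l did not pass (0.20, edgeR adjusted p = 0.533). Mipep, which trims an octapeptide after the processing peptidase has cut, had 24.3 ± 5.35 and 37.4 ± 4.02 CPM in the same order (log2 difference 0.62, SE 0.17, edgeR adjusted p = 0.0409). Its call was lost with total count scaling (0.26, edgeR adjusted p = 0.139) and without Control replicates 1 and 2 (0.42, edgeR adjusted p = 0.087). Adipocyte marker scaling turned the difference of Mipep to -0.18 (edgeR adjusted p = 0.524). With 1 library left out, both genes were called only without Control replicate 1, 3 or 4, and the adjusted p reached 0.1005 for Immp2l and 0.118 for Mipep. Oxa1l, the insertase of the inner membrane, did not pass (log2 difference 0.35, edgeR adjusted p = 0.0633). Of 15 other quality control genes 1 was higher and 0 lower, with a median of 0.21, against 0 higher, 1 lower and -0.18 with total count scaling. Clpb, a disaggregase of the intermembrane space, had 56.5 ± 15.3 CPM over the controls and 89.5 ± 4.73 CPM over the UBKO libraries (mean ± SD, n = 5 and 4), a log2 difference of 0.66 (SE 0.18, edgeR adjusted p = 0.043). Its call was lost with total count scaling (0.31, edgeR adjusted p = 0.105) and without Control replicates 1 and 2 (0.46, edgeR adjusted p = 0.0932). Adipocyte marker scaling turned the difference of Clpb to -0.13 (edgeR adjusted p = 0.609). With 1 library left out the call was made only without Control replicate 1 or 3 (edgeR adjusted p up to 0.111 in the others).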

How the data were processed

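The deposited table lists 28481 genes, each with the authors' read counts and FPKM in 9 libraries. It also holds the authors' own comparison of the genotypes, as a log2 fold change with p-value and q-value, whose test was not stated. Per the labels' protocols, column-purified total RNA went into paired-end TruSeq libraries. Strandedness, read counter and annotation were not stated. Tools listed in the submitters' processing notes are SAMtools 1.3.1, HISAT2 and Cuffdiff, with build mm10. The deposited FPKM were checked: they follow each library's total count, and for 98% of 11091 genes they divide by the summed length of all distinct GENCODE M21 exons (within 2%), so levels between genes were recomputed per merged exon length.

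The main test was edgeR 4.0.16 (R 4.3.3; filterByExpr, TMM, glmQLFit and glmQLFTest, genotype the only term, two-sided, Benjamini-Hochberg over 16123 genes, called at 0.05). Library totals were 15308480 to 17632709 counts, and the import genes took 0.331 to 0.418% of them. Alternatives were DESeq2 1.42.0, limma 3.58.1 (voom with array weights, and log2(FPKM + 1) or log2(FPKM + 0.1) where 4 libraries reached FPKM 1), other scalings, no filter, the replicate number as a block and left-out libraries. Pair ratios used exact permutation tests in scipy 1.17.1. On simulated counts for 16123 genes in these libraries the fit recovered 11.9% of genes changed 1.5-fold, 53.7% of those changed 2-fold and 93.9% of those changed 4-fold. Of 111 calls 5 were false. In this single draw a small share of the genes was changed, up or down at random and independently. A setting where many genes shift and more fall than rise, as in these data, was not simulated. No replicates were duplicates: a chi-square of 15.5 or more per degree of freedom separated any 2 replicates.

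The genes and lists were chosen with earlier results of these data known. Values in every library are given for up to 3 genes of each role with the smallest p, and up to 4 genes of each other list are named. Gm21981, Yipf2 and Dnajc19-ps were named after their values were seen. Genes were called overlapping by the coordinates of the table. Motifs were searched as exact letters in RefSeq windows, and 6 genes had no window.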

Additional observations from a re-analysis of the deposited data

Results flagged for a closer look

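Of 90 groups of libraries (45 genes in 2 genotypes) 3 held a library far from the others by Dixon's criterion, which chance meets in about 1 in 20 groups. Clpx stood at 58.8 CPM in Control replicate 1 and at 87.6 to 91.7 CPM in the other controls. Pmpcb stood at 128.4 CPM in UBKO replicate 2 and at 150.7 to 155 CPM in the other UBKO libraries. Tomm70a stood at 92.1 CPM in UBKO replicate 2 and at 103.3 to 105.4 CPM in the other UBKO libraries. Control replicate 1 held epididymal transcripts, and UBKO replicate 2 was the lowest UBKO library for 35 of 45 genes.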

How the results depend on the processing

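Of the import and quality control genes 3 were higher. There were 5 with DESeq2 size factors, 0 with total count scaling, 0 with adipocyte marker scaling, 1 without a filter, 9 with DESeq2's Wald test, 0 with limma on log2(FPKM + 1) or log2(FPKM + 0.1), 8 with limma voom and array weights, 0 with the replicate block, 0 without Control replicates 1 and 2, 1 in the authors' deposited comparison, and 0 to 6 with 1 library left out. The 0 came without UBKO replicate 1, 3 or 4, and the 6 without Control replicate 3 or UBKO replicate 2. Of all genes tested 3.88% were higher in the main fit, 4.29% with DESeq2 size factors, 1.46% with total counts and 0.329% with adipocyte markers. Without a filter they were 1.05%, with DESeq2's Wald test 6.81%, with limma on FPKM 2.33 and 2.05%, and with voom 6.64%. The replicate block gave 1.18%, leaving out Control replicates 1 and 2 1.5%, the authors' comparison 1.04%, and leaving out 1 library 0.915 to 6.01%. The count of lower genes, 0, became 8 with total counts, 18 with adipocyte markers and 8 with limma on either FPKM scale, and was 0 in each fit without 1 library. Of all genes tested 27.8% were lower with total counts, 44.4% with adipocyte markers, and 31.1 and 31.7% with limma on FPKM. Without 1 library 3.63 to 9.41% were lower. The median log2 difference of 0.21 became -0.18 with total counts, -0.68 with adipocyte markers, -0.13 and -0.15 with limma on log2(FPKM + 1) and log2(FPKM + 0.1), and -0.15 in the authors' comparison, and was 0.17 to 0.26 without 1 library. These scalings lower nearly every gene together, as the medians of all genes show.

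Of all genes 626 were higher and 1219 lower. Higher genes numbered 236 with total counts, 53 with adipocyte markers, 300 without a filter, 1136 with DESeq2, 280 and 247 with limma on FPKM, 1070 with voom, 191 with the replicate block, 240 without Control replicates 1 and 2, 411 without UBKO replicate 2 as well, 295 in the authors' comparison, and 152 to 954 without 1 library. Lower genes numbered 4482, 7159, 810, 1894, 3743, 3814, 556 and 782 with total counts, adipocyte markers, no filter, DESeq2, limma on both FPKM scales, the replicate block and without Control replicates 1 and 2, and 604 to 1495 without 1 library. Apart from construction of the scalings, the cause of these moves was not tested. Of 12 pair ratios 0 passed in the main test, in which a single changed pair could not pass by itself.

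Signs turned where a value was called in either fit for Afg3l2 (log2 difference -0.35 with total counts, -0.83 with adipocyte markers, -0.29 and -0.32 with limma) and Tomm40 (-0.34, -0.85, -0.28 and -0.31 in the same order). With adipocyte markers they also turned for Gfer (-0.82), Grpel1 (-0.68), Hspd1 (-0.74), Lonp1 (-0.58), Phb2 (-0.69), Timm10 (-0.81), Timm10b (-0.83), Timm21 (-0.28), Timm29 (-0.45), Tomm70a (-0.69) and Trap1 (-0.13).

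The replicate numbers are not said to pair animals. Deviations of same-numbered libraries correlated at -0.179, 0.54, 0.0946 and 0.164, and 1 of 4 UBKO libraries, replicate 2, correlated best with its own number. In counts simulated for these libraries most 4-fold but few 1.5-fold changes were called, and recovery at other depths was not simulated, so differences of the size seen here could be missed. Counts from overlapping genes could not be separated for 13 of the 45 genes, those whose overlapping genes hold at least 10% as many counts.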

Other observations

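Genes of the mitochondrial and integrated stress response, which cells induce when import or folding fails, were listed by function. Of 13 tested 0 were higher and 2 lower, where 3.88% of all genes were higher and 7.56% lower, with a median log2 difference of -0.19. With total count scaling 6 were lower, where 27.8% of all genes were. Mthfd2, a mitochondrial enzyme of one-carbon metabolism, stood at 19.1 ± 3.01 CPM over the 5 controls and 9.73 ± 1.297 CPM over the 4 UBKO libraries (mean ± SD) and fell by 0.98 in log2 level (SE 0.15, edgeR adjusted p = 0.00465), a call made in 9 of 9 fits without 1 library. Shmt2, which feeds the same pathway from serine, stood at 31.2 ± 4.08 and 20.9 ± 3.895 CPM and fell by 0.58 (SE 0.15, edgeR adjusted p = 0.0351). That call was lost without Control replicates 1 and 2 (-0.45, edgeR adjusted p = 0.1345), and with 1 library left out it was made only without Control replicate 3, Control replicate 4 or UBKO replicate 1 (edgeR adjusted p up to 0.107 in the others). Gdf15, a secreted stress hormone, was low, at 5.31 ± 3.09 CPM over the controls and 0.848 ± 0.925 CPM over the UBKO libraries (mean ± SD). Trib3, a target of ATF4, stood at 10.9 ± 3.36 and 6.72 ± 0.4185 CPM. Their log2 differences of -2.62 (SE 0.86) and -0.70 (SE 0.24) did not pass with TMM (edgeR adjusted p = 0.0773 and 0.0852). Both passed with total count scaling (edgeR adjusted p = 0.0348 and 0.00732). Gdf15 also passed without UBKO replicate 2 (edgeR adjusted p = 0.0428), and Trib3 without Control replicate 2 (edgeR adjusted p = 0.0335) and without Control replicates 1 and 2 (edgeR adjusted p = 0.00619). Macrophage markers, also lower, took 0.118 to 0.299% of the counts in control and 0.0258 to 0.0371% in UBKO libraries, and their part in these values was not tested.

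Of 15 cytosolic and endoplasmic reticulum chaperones 1 was higher and 1 lower, with a median of -0.03, where 3.88% of all genes were higher and 7.56% lower. With total count scaling 0 were higher and 9 lower, where 1.46% of all genes were higher and 27.8% lower. Their median was then -0.42, against -0.39 for all genes. Dnaja1, a cytosolic partner of Hsp70, stood at 68.6 ± 7.165 CPM over the 5 controls and 89.9 ± 3.76 CPM over the 4 UBKO libraries (mean ± SD), a log2 difference of 0.39 (SE 0.10, edgeR adjusted p = 0.0331). With total count scaling it was -0.01 (edgeR adjusted p = 0.959), and with 1 library left out the call was made only without Control replicate 1, 2 or 3 (edgeR adjusted p up to 0.0956 in the others). Hspa5, the Hsp70 protein of the endoplasmic reticulum, stood at 402 ± 163 and 180 ± 50.1 CPM and fell by 1.16 (SE 0.32, edgeR adjusted p = 0.0452). The difference moved to -0.68 when Control replicates 1 and 2 were left out (edgeR adjusted p = 0.153), and with 1 library left out the call was made only without Control replicate 3 or UBKO replicate 2 (edgeR adjusted p up to 0.116 in the others).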
